A study of Mus musculus with 15 samples.

Results

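Exc_16 is a fine-level cluster of excitatory neurons from the mouse prefrontal cortex (PFC), the frontal association area that serves decision making and the control of behaviour. Its members were all the cells that the study's own cell annotation places in the fine cluster Exc_16, which gave 952 of the 35360 retained cells and 952 of the 20377 cells in the 26 excitatory clusters. Single-cell RNA libraries were made on the 10x Chromium platform, which tags each captured transcript with a unique molecular identifier (UMI), from male C57BL/6N mice. Young mice of 3 weeks (P21) gave 3 libraries, and adult mice of 8-10 weeks (P60) that had self-administered saline or cocaine intravenously gave 12 libraries, with 2 libraries for each of the 2 treatments during maintenance, after 48 h of withdrawal and after 15 days of withdrawal. All P60 mice were part of the self-administration experiment, so the saline mice are controls with the procedure and not untreated mice. Tissue of 2 animals was pooled for each dissociation, the tissue tag of the labels names the nucleus accumbens (NAc) although titles and source names give the PFC, and the study's methods give fewer P21 mice than separate pools for all 3 libraries would need. Nothing in the labels ties a library to particular animals, so p-values measure the spread between these libraries, and age cannot be told apart from any difference in preparation between the P21 and the P60 series.

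Excitatory neurons of the neocortex release glutamate and are marked by the vesicular transporter Slc17a7 and by transcription factors such as Neurod6. They are arranged in layers: those of the upper layers and many in layer 5 project within the cortex (intratelencephalic, or IT, neurons), whereas pyramidal-tract neurons of layer 5 and corticothalamic neurons of layer 6 send axons out of it. Between the third postnatal week and adulthood such neurons prune and stabilise synapses, acquire neuronal DNA methylation and lose much of their axon growth programme.

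Exc_16 was found in each of the 15 libraries, with 11 to 152 cells at P60 (794 cells) and 45 to 63 at P21 (158 cells). Its summed UMIs ran from 217825 to 2633971 a library, and its median UMIs per cell from 14711 to 20765 at P60 and from 11666 to 15539 at P21, so that P21 levels rest on fewer UMIs per cell. In P60 library 2, a saline library of maintenance, the cluster had its fewest cells, 11. Cell barcodes shared by 2 or more libraries numbered 747 among all retained cells and 1 among Exc_16 cells. In the broad annotation all 794 P60 cells were excitatory, but 8 of the 158 P21 cells carried another class (3 endothelial, 1 inhibitory, 1 microglial, 2 newly formed oligodendrocyte and 1 oligodendrocyte cell). Results at P21 were therefore also computed without these 8 cells.

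The excitatory label held against its markers. At P60, Slc17a7 stood at 325 CPM (UMI counts scaled to the same total in every library) in Exc_16 and at 403 CPM in the mean of the other 25 excitatory clusters, Neurod6 at 550 CPM and Camk2a at 338 CPM, and all 9 excitatory markers were detected. The summed level of 11 markers of inhibitory neurons was 0 to 38.8 CPM in the P60 libraries and 44.7 to 164 CPM at P21, against 25045 CPM in the authors' inhibitory class at P60. Gad1, the enzyme that makes GABA, was at 1.4 CPM and Dlx2 at 0.

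Markers of glia and vessels were low at P60, and some were higher at P21. The 9 oligodendrocyte markers summed to 73.4 to 221 CPM at P60 and to 186 to 1430 CPM at P21, against 82674 CPM in the authors' oligodendrocytes. Microglial markers summed to 25.95 to 75.3 CPM at P60 and 27.3 to 196 CPM at P21. Astrocyte markers summed to 362 to 527 CPM at P60 and 538 to 714 CPM at P21, nearly all of it Slc1a2 and Aldoc, with Gja1 at 1.1 CPM and Gfap at 0.1 CPM at P60 and both at 0 at P21. Endothelial markers summed to 482 to 809 CPM at P60 and 612 to 957 CPM at P21, mostly Bsg, with Cldn5 at 1.3 CPM. Of the markers of striatal projection neurons, which the NAc would hold, Foxp1 made up 249 CPM, while Drd2 was at 0 and Adora2a at 0.2 CPM.

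The 3 clusters most like Exc_16 at P60 were Exc_17 (Pearson r of log2(CPM + 1) = 0.989 over 7770 genes), Exc_6 (0.989) and Exc_15 (0.984), and the next was Exc_8 (0.972). These correlations are across genes, which are not replicates, between clusters from the same libraries, and are given as a description. Since the authors drew the clusters from these same genes, the comparison of Exc_16 with other clusters is also a description and carries no test. Of 5848 genes at 20 CPM or more in Exc_16, 122 were highest there, but none lay 2-fold above the next cluster, and 11 of the 26 clusters had no such gene. Against the mean of the other 25 clusters, 56 genes were at least 2-fold higher, 2 of them at least 4-fold. Among genes at 20 CPM or more in that mean, 105 were at least 2-fold lower in Exc_16.

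The genes that stood highest over the mean of the other clusters include a nuclear receptor, a proteinase inhibitor and a cell cycle inhibitor. Expi, a small secreted proteinase inhibitor (chr11:83522517-83524850 of mm9, + strand), averaged 153 CPM at P60 against 26.6 CPM in the mean of the others, with 105 CPM in the lowest library, 145 in the median and 264 in the highest. Only Exc_15, at 231 CPM, was higher, and in the P21 libraries Expi was at 168, 189 and 177 CPM. Rxrg, the retinoid X receptor gamma (chr1:169528515-169569754, + strand), was highest of all clusters in Exc_16 at 64.4 CPM against 14.6 CPM in the others, ranging over the 12 P60 libraries from 40.2 through a median of 66.2 to 81.6 CPM, with Exc_15 next at 57.1 CPM.

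Lat2, an adaptor protein best known from leukocytes (chr5:135076138-135090893, - strand), was at 25.9 CPM against 6.34 CPM in the others and 23.6 CPM in Exc_6. Cdkn1c, the cyclin-dependent kinase inhibitor p57 (chr7:150644255-150646955, - strand), was at 37.4 CPM against 9.51 CPM and 27.1 CPM in Exc_15. Maob, monoamine oxidase B (chrX:16286408-16394492, - strand), was at 56.3 CPM against 16.1 CPM, level with the 55.0 CPM of Exc_15. All 5 of these genes were above the mean of the other clusters in each of the 12 P60 libraries. They were chosen for this difference in the same libraries, so that count adds no independent support. Rxrg was above every other cluster in 9 of the 12 libraries.

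Other genes with their highest level in Exc_16 were Sccpdh (384 CPM, 134 in the others), the orphan nuclear receptor Nr4a1 (60.5 and 32.2 CPM), the glyoxalase Glo1 (215 and 173 CPM), the neuropeptide gene Adcyap1 (77.7 and 30.2 CPM) and the NMDA receptor subunit Grin3a (28.7 and 12.1 CPM). The next cluster was at 338 CPM for Sccpdh (Exc_15), 50.3 CPM for Nr4a1 (Exc_23) and 194 CPM for Glo1 (Exc_8). Nr4a1 and Glo1 were each above every other cluster in 4 of the 12 P60 libraries. The median of Nr4a1 was 52.6 CPM, with 161 and 95.4 CPM in libraries 4 and 2, which have the fewest Exc_16 cells. At P21 Exc_16 ranked 10 of 26 for Nr4a1. The 6 genes lowest against the mean of the others followed. Tshz2, a factor of near-projecting neurons, was at 0.821 CPM against 96.0 CPM. Rprm, a marker of corticothalamic neurons, was at 19.6 CPM against 312 CPM, and Slc24a2, a calcium exchanger, at 9.66 CPM against 134 CPM. Penk, Cbln2 and Igfbp4 were at 0.785, 0.401 and 2.13 CPM against 31.6, 30.3 and 37.6 CPM. Only Slc24a2 and Cbln2 had their lowest level of all clusters in Exc_16 (rank 26 of 26). Tshz2 ranked 23, Rprm and Penk 22 and Igfbp4 17, so other clusters were as low or lower. Single high clusters raise the means of the others, such as Exc_21 for Tshz2 (2100 CPM) and Exc_26 for Igfbp4 (244 CPM).

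**Figure D1:**
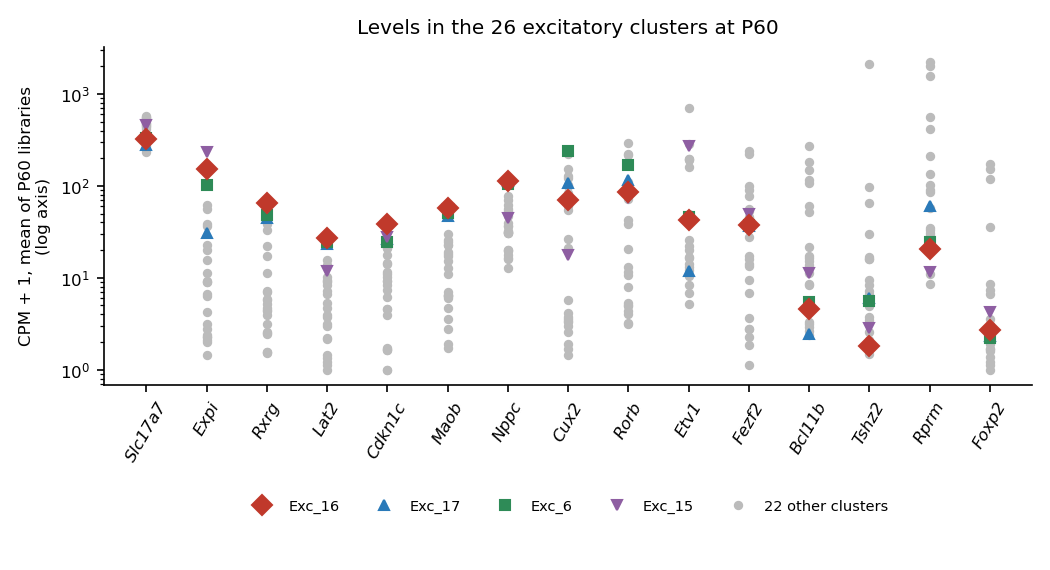
Mean level over the P60 libraries (CPM + 1, log axis) of 15 genes in each of the 26 excitatory clusters, with Exc_16 as a red diamond, Exc_17, Exc_6 and Exc_15 as coloured symbols and the 22 other clusters in grey. Expi, Rxrg, Lat2, Cdkn1c and Maob lie near the top in Exc_16 and in 1 or more of its neighbours, and Tshz2 and Foxp2 lie near 0.

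The layer markers did not place Exc_16 in a single layer. By likeness of whole profiles, the paper grouped its fine clusters 6, 15, 16 and 17 with layer 5 IT cells of the anterolateral motor cortex. It found no similar cluster for them in the primary visual cortex. The upper-layer factor Cux2 was at 69.3 CPM (58.0 in the others), the layer 4 and 5 factor Rorb at 84.1 CPM (67.4), the layer 5 factor Etv1 at 41.2 CPM (95.9) and Fezf2 at 36.9 CPM (46.0). Exc_21, at 706 CPM for Etv1 and 239 CPM for Fezf2, raises these means of the others. Bcl11b, which marks pyramidal-tract neurons, was at 3.55 CPM against 43.2 CPM, Foxp2 at 1.70 CPM against 20.7 CPM, and the upper-layer calcium buffer Calb1 at 6.83 CPM against 94.2 CPM. By the summed level of its markers at P60, Exc_16 ranked 5 of 26 for layer 6b (98.8 CPM against 71.9 CPM in the others, of which the potassium channel subunit Kcnab1 made up 93.0 CPM). It ranked 8 for layer 4 and 5 IT, 9 for layer 5 pyramidal-tract (511 against 480.0 CPM), 10 for near-projecting, 13 for layer 2/3 IT and for layer 5 IT, 22 for corticothalamic and 23 for layer 6 IT neurons. Of the 13 pyramidal-tract markers, 3 (Chrna6, Fam84b and Ptgfr) were at 0 in every P60 library, and Bcl11b was low as given above. At P21 the layer 6b rank was 15, and the other 7 ranks moved by at most 2. In the list of cortical transcription factors Exc_16 ranked 3 of 26, with Lmo4, Nfix and Mef2c each at rank 2 or 3. That list summed to 7395 CPM against 6135 CPM in the others, and was highest in Exc_6 (7580 CPM). In genes of oxidative phosphorylation Exc_16 ranked 24, at 39148 against 42329 CPM. Its P60 libraries (34411 to 45370 CPM) overlapped those of the other clusters (37691 to 49889 CPM).

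Exc_16 and its 3 neighbours were separated by a few genes, which were compared within the P60 libraries that held at least 10 cells of both. Against Exc_17 (9 libraries) 15 of 6001 genes were at least 2-fold higher and 9 at least 2-fold lower. Expi was at 160 CPM against 29.9 CPM and the protocadherin Pcdh19 at 81.6 against 25.8 CPM, with no overlap of libraries, and S100b at 28.2 against 4.32 CPM. The calcium-binding S100a6 was at 30.6 against 87.7 CPM and Rprm at 18.5 against 60.0 CPM, again without overlap.

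Against Exc_15 (8 libraries) 27 of 6175 genes were at least 2-fold higher and 25 lower. The cell surface protein Cd24a was at 20.01 against 3.65 CPM and Cux2 at 73.9 against 16.5 CPM, whereas S100b was at 30.8 against 250 CPM and Etv1 at 42.8 against 270 CPM. Between Exc_17 and Exc_15, Etv1 and S100b in Exc_16 therefore took intermediate levels. Against Exc_6 (10 libraries) 4 of 6057 genes were at least 2-fold higher in the mean over libraries, 0 of them in every library, and 65 were lower, 61 of them in every library. The lower ones included the growth factor antagonist Spry2 (10.7 against 108 CPM), the heat shock factor Hsf2 (5.82 against 43.7 CPM) and the zinc transporter Slc39a1 (9.27 against 61.7 CPM), each with no overlap of libraries.

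The share of Exc_16 among excitatory cells was lower at P21 than at P60. It was 2.54%, 2.91% and 2.63% in the P21 libraries, and in the 6 saline P60 libraries 3.43% at the lowest, 5.47% at the median and 6.60% at the highest. The groups did not overlap, with means of 2.69% ± 0.191 (SD, n = 3) and 5.36% ± 1.18 (SD, n = 6), a difference of -2.67 percentage points (two-sided exact permutation test, p = 0.0238, the smallest possible being 0.0119). Of the 26 excitatory clusters, 3 had every P21 library below every saline library, and 3 had every P21 library above. Those higher at P21 were Exc_20 (means of 8.37% and 1.19% in saline), Exc_18 (6.09% and 1.44%) and Exc_9 (8.16% and 3.404%), which share the denominator with Exc_16. Exact (Clopper-Pearson) 95% intervals, which cover counting error only, ran from 1.96% to 3.24% in P21 library 1 and from 1.72% to 6.05% in saline library 2, the library with 11 cells. As a share of all retained cells the difference was -1.43 points (exact permutation test, p = 0.0833), and without saline library 3 it was -2.57 points among excitatory cells (exact permutation test, p = 0.0536). The authors clustered the P60 cells and then assigned P21 cells to the clusters by correlation, and the part of that step in the difference was not tested.

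Cocaine was not accompanied by a detectable change of the share. Among the cocaine libraries it was 7.19% and 2.45% at maintenance, 5.95% and 6.89% at 48 h, and 5.80% and 4.94% at 15 days, for a mean of 5.54% ± 1.72 (SD, n = 6). The mean difference from saline within time points was 0.182 points (exact permutation test, p = 0.796, the smallest possible being 0.00926). Leaving out 1 library at a time moved it from -0.608 to 0.973 points, and the sign turned without library 1, 2, 5 or 11.

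**Figure D2:**
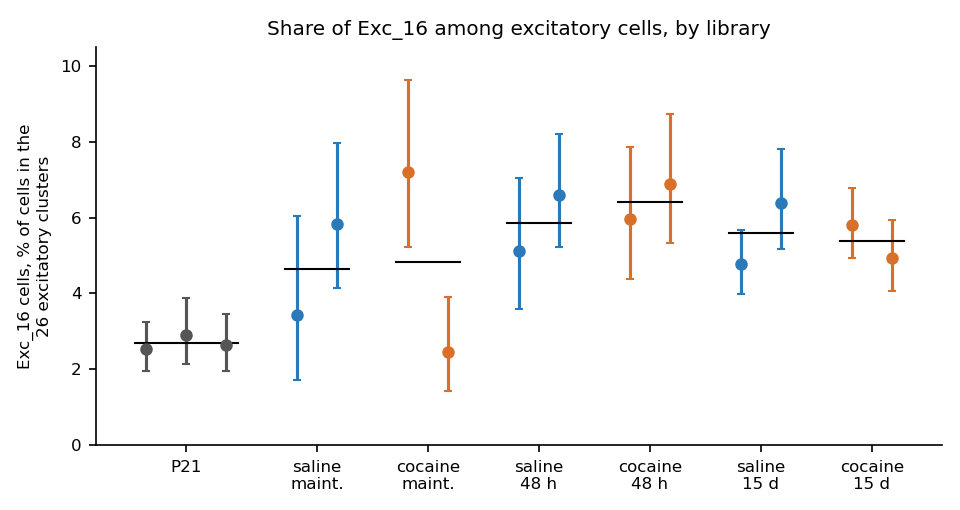
Exc_16 cells as a percentage of the cells in the 26 excitatory clusters, 1 point per library, with exact 95% binomial intervals and the group mean as a black line. The 3 P21 libraries sit between 2.54% and 2.91%, below all 6 saline libraries, while saline and cocaine libraries overlap.

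For expression by age, UMI counts were summed over the Exc_16 cells of each library and the 3 P21 libraries were compared with the 6 saline P60 libraries by edgeR's quasi-likelihood test. A gene was called at a Benjamini-Hochberg adjusted p under 0.05 and more than 1.5-fold. Of 7074 genes tested, 763 were called (10.8%), 474 of them higher (6.7%) and 289 lower (4.09%) at P21. Log2 fold changes below are P21 over saline P60, followed by their standard error (SE), and adjusted p-values are from this edgeR test over all 7074 genes. The median log2 fold change of all tested genes was 0.00.

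Among the largest changes that left the groups apart, the histone gene Hist1h2bc rose at P21, and Ass1, Nrsn2, Tnnt2 and Maob fell. Hist1h2bc, which encodes a core histone H2B (chr13:23776068-23784357, + strand), was at 118, 125 and 93.1 CPM in the P21 libraries and at 4.19 CPM in the lowest, 10.1 in the median and 17.1 in the highest saline library. Histone genes have near-identical copies, between which reads may be split. All P21 libraries were far above all saline libraries (log2 fold change 3.33, SE 0.24, edgeR adjusted p = 1.02e-10). Ass1, argininosuccinate synthase of the arginine and urea pathway (chr2:31325727-31376192, + strand), was at 3.4, 3.9 and 7.6 CPM at P21. In the saline libraries it ran from 110 through 158 to 185 CPM, and with -5.02 (SE 0.29, edgeR adjusted p = 7.61e-13) it was the deepest of the falls named here.

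Nrsn2, a membrane protein of neuronal vesicles (chr2:152194491-152202374, - strand), was at 26.3, 7.8 and 7.6 CPM at P21 and at 52.2, 94.0 and 137 CPM in the lowest, median and highest saline library (-2.63, SE 0.38, edgeR adjusted p = 0.000558). Tnnt2, troponin T of heart muscle (chr1:137737452-137748837, + strand), was at 21.8, 21.5 and 7.6 CPM at P21 and ran from 78.9 through 91.7 to 146 CPM in saline (-2.39, SE 0.26, edgeR adjusted p = 8.83e-07). Hist1h2bc, Ass1, Nrsn2 and Tnnt2 were called under all 21 alternatives tried for them, and the 6 cocaine P60 libraries lay with the saline ones, Ass1 for example between 118 and 180 CPM. Maob, which is among the genes that stand out in adult Exc_16, was at 9.2, 7.8 and 24.7 CPM at P21 and ran from 30.1 through 53.9 to 72.6 CPM in saline (-2.16, SE 0.31, edgeR adjusted p = 3.75e-05).

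The other named falls were of Ccnd1 (cyclin D1, -2.97), the iodide transporter Slc5a5 (-2.89), the nonmuscle myosin Myh14 (-2.22), the lipid droplet protein Cidea (-2.11), Fhad1 (-1.93) and the proprotein convertase Pcsk4 (-1.92), with edgeR adjusted p-values between 6.12e-05 and 0.0188. The matrix protein Sparc (24.4 CPM against 2.83 CPM, 2.93) and the zinc finger gene Zfp580 (25.1 CPM against 3.29 CPM, 2.95) rose. Sparc lost its call when the 8 P21 cells of another class were left out.

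Several of the largest rises were high mainly in individual libraries or were of genes best known from other cell types. Hbb-b1, a beta globin of red blood cells, was at 167, 1974 and 1493 CPM at P21 and at 67.7 CPM in the saline mean (log2 fold change 4.17, edgeR adjusted p = 0.0084), but also at 1972 CPM in cocaine library 1. Hbb-b2, Hba-a1 and Hba-a2, whose paired copies share much sequence so that reads may be split between them, rose with it (4.65, 4.64 and 4.59), and all 4 globin calls were lost when all 12 P60 libraries entered the comparison. H2afj (174, 19.5 and 19.0 CPM at P21) and Gm1673 (285, 46.8 and 43.7 CPM) were high mainly in P21 library 1 and held in 6 and 8 of 20 alternatives. Of the oligodendrocyte list, 3 of 4 tested members rose, among them Mbp (1.65) and Cnp (1.90), with a list median of 1.84. Among all tested genes 6.7% rose. Without the 8 cells of another class Mbp was the only call of the list and the median of the 4 was 1.47. Both kinds of gene were also higher at P21 in the other excitatory clusters. There Hbb-b1 was at 1034, 806 and 580 CPM at P21 and between 66.0 and 344 CPM in saline. The oligodendrocyte markers summed there to 342 to 712 CPM at P21 and 71.5 to 197 CPM at P60. The part of other cells' RNA in these rises was not tested.

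Of 16 tested genes of axon growth and the growing cytoskeleton 5 rose at P21, 0 fell and 11 did not pass, with a median log2 fold change of 0.53, where 6.7% of all tested genes rose. Marcksl1, a regulator of membrane-bound actin (chr4:129190825-129193229, + strand), was at 315, 261 and 230 CPM at P21 and between 84.8 and 120 CPM in saline with a median of 100 CPM (1.44, edgeR adjusted p = 4.41e-08). D0H4S114, also known as P311, was at 53.8, 39.0 and 58.9 CPM against 4.89 to 15.7 CPM (2.00, edgeR adjusted p = 7.96e-06). Tubb2b, a tubulin of growing neurons (1.10), the growth cone protein Dpysl2 (0.85) and the actin bundler Fscn1 (1.16) completed the group.

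Of 14 immediate-early genes, which neurons switch on within minutes of activity or handling, 4 rose, 0 fell and 10 did not pass (median 0.60), beside the 6.7% of all tested genes that rose. Junb was at 351, 326 and 300.2 CPM at P21 and at 24.3, 45.9 and 124 CPM in the lowest, median and highest saline library (2.38, SE 0.42, edgeR adjusted p = 0.0103), and Ier2 (2.60), Btg2 (1.09) and Nr4a1 (0.86) were the others. Junb was also at 128 and 140 CPM in cocaine libraries 9 and 10 and at 124 CPM in saline library 12, the 3 P60 libraries that lie nearest to P21 in the library pattern described with the cocaine results. With that pattern as a covariate 2 members were called, Egr1 and Nr4a1, and the list median was 0.70. Without the 8 P21 cells of another class 3 were called, Btg2 not among them, and the median was 0.62.

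Of 8 tested genes that write or remove DNA methylation 2 rose and 6 did not pass, with a list median of 0.50 (6.7% of all tested genes rose, 10.8% changed). With the library score as a covariate 1 rose and the median was 0.01. Dnmt3a, the de novo DNA methyltransferase, was at 66.4, 91.7 and 93.1 CPM at P21 and ran in saline from 24.0 through 30.1 to 55.2 CPM (1.39, SE 0.21, edgeR adjusted p = 5.36e-05). Tet3, which oxidises methylcytosine, was at 43.7 ± 7.03 CPM (SD, n = 3) against 24.2 ± 5.76 CPM (SD, n = 6; 0.73, edgeR adjusted p = 0.0328).

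Of the chromatin genes that the study names, 4 of 15 rose (Dnmt3a, Yeats4 with 1.75, Ube2d3 with 0.84 and Chd3 with 1.01) and 4 fell, around a median of -0.05, where 6.7% of all tested genes rose and 4.09% fell. The arginine methyltransferase Prmt1 was at 172, 115 and 120 CPM at P21 against 253 to 367 CPM (-1.13, edgeR adjusted p = 4.07e-05), and the heat shock protein Hspa1a (-1.91), Anp32a (-0.88) and Ncl (-0.61) fell with it. The study chose that list on these samples, so its counts are not independent evidence.

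Of 15 tested enzymes of cholesterol synthesis 4 fell at P21, 0 rose and 11 did not pass, where 4.09% of all tested genes fell. The list's median was -0.11, with 9 members below 0 and 6 above. With the library score as a covariate 2 fell, Fdps and Sc4mol, and the median was -0.235. Fdps, farnesyl diphosphate synthase, was at 197, 209 and 224 CPM at P21 and at 286, 400.3 and 488 CPM in the lowest, median and highest saline library (-0.97, SE 0.14, edgeR adjusted p = 4.59e-05). Sc4mol, a methylsterol oxidase, was at 76.7, 85.8 and 77.9 CPM against 156 to 233 CPM (-1.21, edgeR adjusted p = 1.51e-05), and squalene synthase Fdft1 (-0.69) and Nsdhl (-0.82) were also lower. In both enzymes given by library, every P21 value lay below every saline value. Of all 7074 tested genes 553 (7.82%) were called with no overlap of libraries. Nsdhl did overlap, with 41.0 CPM in P21 library 2 and 25.1 CPM in saline library 2.

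Calcium-binding and sensing genes changed in both directions. Of 19 tested, 4 rose (Calb1 with 3.66, the calmodulin regulator Pcp4 with 0.60, Necab3 with 0.96 and the nuclear kinase Camk4 with 0.94) and 2 neuronal calcium sensors fell (Ncald with -0.61 and Vsnl1 with -0.81), around a median of 0.17, beside 6.7% rising and 4.09% falling among all tested genes. With the library score as a covariate only Camk4 rose, 0 fell and the median was 0.05. Camk4 was at 263, 314 and 279 CPM at P21 against 122 to 211 CPM in saline (edgeR adjusted p = 5.69e-05), with no overlap. Calb1 was at 97.3, 29.3 and 28.5 CPM at P21 and at 0, 4.82 and 30.1 CPM in the lowest, median and highest saline library, where the ranges overlapped.

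Among channels and receptors the calls were spread over several lists, at shares to be read against the 10.8% of all tested genes. Of 22 potassium channel genes, Kcnk1 rose (1.07) and Kcnip3 fell (-1.05), of 16 sodium and calcium channel genes Cacna2d3 rose (1.10), of 4 NMDA receptor genes Grin3a rose (0.84), and of 11 GABA-A receptor genes Gabra3 fell (-0.66). Of 4 tested serotonin and acetylcholine receptor genes, the serotonin receptor Htr1f (4.08 against 14.2 CPM, -1.95) and the nicotinic modulator Lynx1 (-1.16) fell, with a list median of -0.68. None of 20 synaptic vesicle genes, 9 AMPA receptor genes, 20 adhesion and guidance genes, 12 neuropeptide genes, 5 dopamine signalling genes and 10 neurofilament genes was called, and neither was any of the 9 excitatory markers.

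The list of cortical transcription factors also holds Dkk3, a gene that is not such a factor. Of its 28 tested members 3 fell (Id2, Dkk3 with -0.92 and Rxrg) and 0 rose. Among all tested genes 4.09% fell and 10.8% changed in either direction. Rxrg was at 33.2, 54.6 and 47.5 CPM at P21 and between 40.2 and 81.6 CPM in saline (-0.65, edgeR adjusted p = 0.0321), with overlap. The layer markers called were Calb1 and Pvrl3 (rose), Deptor (-1.07), Lypd1 (0.99) and Rprm (1.11). Of 42 genes of oxidative phosphorylation only Cox5a rose (1014, 476 and 323 CPM at P21 against 118.5 ± 61.7 CPM (SD, n = 6)), around a list median of -0.13, and of 11 heat shock genes only Hspa1a was called. Of the 28 genes that the study lists for the group of clusters 6, 15, 16 and 17, 2 rose, Entpd4 among them, and Myl6b (-1.41) and Rxrg fell, a share near the 10.8% of all tested genes called. That list too was chosen by the study on these samples.

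The calls depended on how the library pattern and the P21 cells of another class were treated. With a library score as a covariate, taken from the other excitatory clusters, 93 genes were called (43 higher and 50 lower). The score moved with age itself, at 0.93, 0.51 and 0.40 in the P21 libraries against -0.41 to 0.43 in the saline libraries, and 96 of the 763 genes called by age (91 of them higher at P21) are among its 200 genes. Age and the library pattern can therefore not be told apart in this count. Hist1h2bc, Ass1, Nrsn2, Tnnt2, Marcksl1, Dnmt3a, Prmt1, Fdps, Sc4mol and Camk4 were among them. The list members that lost their call included Yeats4, Ube2d3, Chd3, Cox5a, Dpysl2, Fscn1, Tet3, Junb and Ier2, and Gap43 and Marcks of the axon growth list and Atp5g1 of oxidative phosphorylation gained one. Cox5a was at 593 and 515 CPM in P60 libraries 9 and 10, above its value in P21 libraries 2 and 3. Without the 8 P21 cells of another class Rxrg, Rprm, Btg2, Ncl and Ncald were not called.

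**Figure D3:**
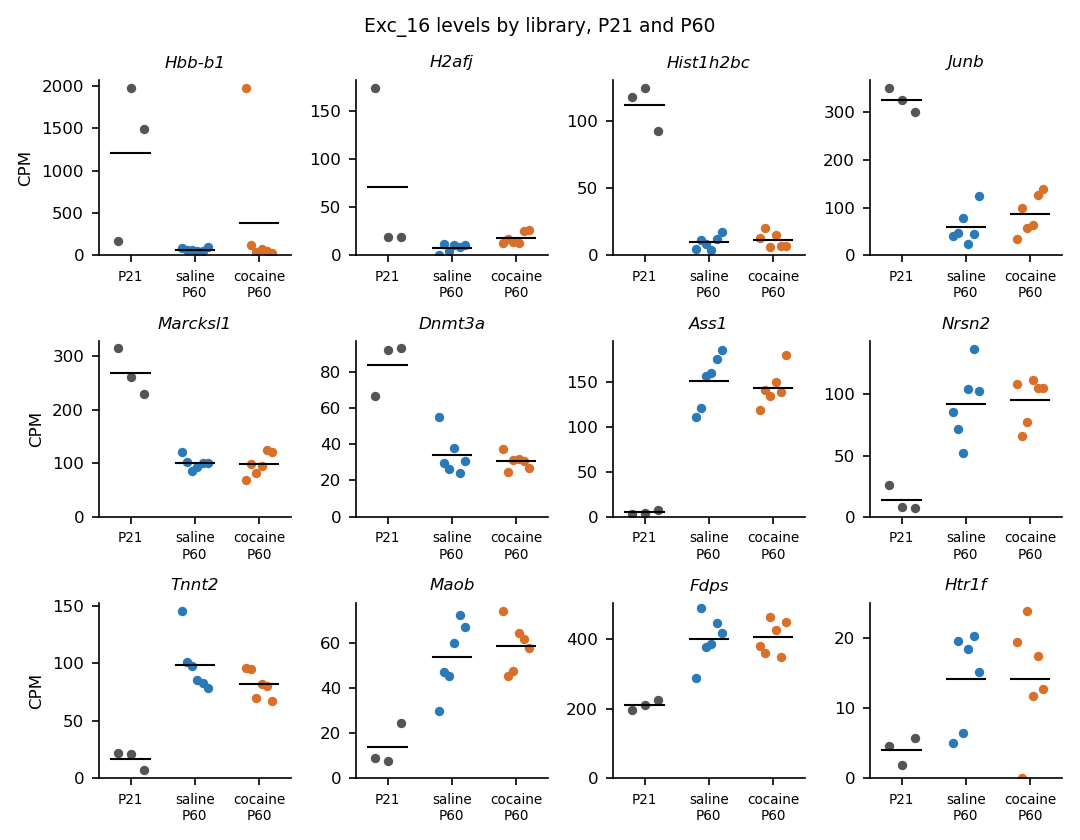
Exc_16 level (CPM) of 12 genes in each of the 3 P21, 6 saline P60 and 6 cocaine P60 libraries, with the group mean as a black line. Hist1h2bc, Junb, Marcksl1 and Dnmt3a are high in all P21 libraries and Ass1, Nrsn2, Tnnt2, Maob and Fdps low, whereas Hbb-b1 and H2afj are spread over the P21 libraries.

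To ask which of these age changes set Exc_16 apart, the change in Exc_16 was tested against that in the sum of the other 25 excitatory clusters of the same libraries (interaction of age and cluster, edgeR). Of 11538 genes 70 were called (0.607%), 34 with a higher and 36 with a lower log2 change in Exc_16, and 23 of the 70 were also called for age within Exc_16. For 38 genes the 2 changes had opposite signs, for 19 the change in Exc_16 had the same sign and was larger, and for 13 it was smaller. Since the clusters take different shares of the cells at the 2 ages, the sum of the others changes its mix with age, and its part in these differences was not tested.

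The fall of Ass1 was deeper in Exc_16: 5.0 CPM at P21 against 151 CPM in saline, compared with 11.03 against 75.0 CPM in the other clusters (difference of log2 changes -2.25, SE 0.38, edgeR adjusted p = 5.31e-06). Nrsn2 stood at 13.9 against 92.3 CPM in Exc_16 and at 40.9 against 70.7 CPM in the others (-1.73, SE 0.25, edgeR adjusted p = 4.18e-08). Efhd2, a calcium-binding protein of the cytoskeleton, was lower at P21 in Exc_16 (39.1 against 85.0 CPM) and higher in the others (148 against 123 CPM; -1.30, edgeR adjusted p = 4.87e-10). Cidea was at 5.0 against 20.96 CPM in Exc_16 and at 7.1 against 6.6 CPM in the others (-2.07, edgeR adjusted p = 0.00203).

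Marcksl1 was higher at P21 in both, but its change was smaller in Exc_16. It stood at 269 against 100 CPM in Exc_16 and at 229 against 28.0 CPM in the others (-1.48, SE 0.12, edgeR adjusted p = 6.44e-24), so that its adult level was the higher one in Exc_16. Hist1h2bc rose more in Exc_16, from 9.74 to 112 CPM, than in the others, from 29.2 to 128 CPM (1.31, SE 0.22, edgeR adjusted p = 7.59e-06). S100a6 was at 41.0 against 50.1 CPM in Exc_16 and at 58.1 against 191 CPM in the others (1.66, edgeR adjusted p = 3.58e-05), and the adhesion molecule gene Pvrl3 at 24.4 against 5.98 CPM in Exc_16 and at 26.2 against 21.7 CPM in the others (1.38, edgeR adjusted p = 0.00963).

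Most of these differences were not seen against the 3 most alike clusters, Exc_17, Exc_6 and Exc_15. In that comparison 6 of 8768 genes were called (0.0684%), and of the 62 genes among the 70 that could be tested there, 2 were called again (Cd24a and S100a6). Ass1 fell in the alike clusters from 154 to 9.1 CPM (difference -1.03, edgeR adjusted p = 0.64) and Hist1h2bc rose there from 10.2 to 109 CPM (difference -0.24), levels near those of Exc_16. A p that misses the threshold does not show that the changes were equal.

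The 6 genes called against the alike clusters were Calb1 (51.7 CPM at P21 against 7.97 CPM in Exc_16, 35.3 against 14.5 CPM in the alike clusters, difference 2.07, edgeR adjusted p = 0.000655), S100a6 (1.13, edgeR adjusted p = 0.0255), Nae1 of the NEDD8 pathway (0.62), Cd24a (-1.52), Actb (-0.61) and Gtdc1 (-0.88). Beta-actin, Actb, was at 1992 CPM at P21 and 1907 CPM in saline in Exc_16, and at 4187 and 2523 CPM in the alike clusters (edgeR adjusted p = 0.00289). Cd24a was at 63.0, 113 and 139 CPM in the P21 libraries of Exc_16 and at 22.6 CPM in the median saline library, and rose from 9.4 to 98.4 CPM in the alike clusters.

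**Figure D4:**
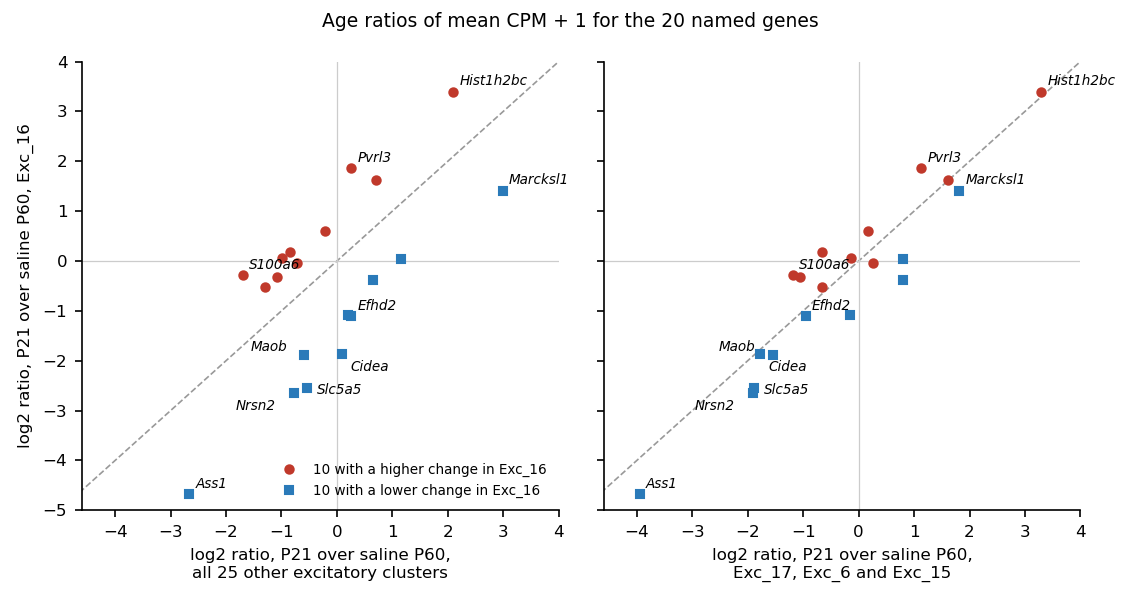
Log2 ratio of mean CPM + 1 at P21 over saline P60 in Exc_16 (y axis) against the same ratio in all 25 other excitatory clusters (left) and in Exc_17, Exc_6 and Exc_15 (right), for 10 genes with a higher and 10 with a lower change in Exc_16. On the left the points lie off the dashed line of equality, as the rule that chose them requires, and on the right Ass1 and Hist1h2bc lie nearer to it.

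Cocaine was compared with saline within each time point, in a fit of all 12 P60 libraries over 8767 genes, with 2 libraries per group. At maintenance 0 genes (0%) and at 48 h 0 genes (0%) were called by edgeR, with 593 and 376 genes at an unadjusted p under 0.05, and DESeq2 also called 0 at both. Leaving out library 4 or 2 at maintenance gave 6 or 3 genes and leaving out library 7 at 48 h gave 1.

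At 15 days 116 genes were called (1.32%), of which 112 were higher (1.28%) and 4 lower (0.0456%) with cocaine. Trappc6b, a subunit of a vesicle tethering complex, was at 179 and 154 CPM in cocaine libraries 9 and 10 and at 50.7 and 68.4 CPM in saline libraries 11 and 12 (log2 fold change 1.54, SE 0.17, edgeR adjusted p = 5.57e-08). The RNase P subunit gene Pop5 (1.49) and Tm2d1 (1.49) moved with it. Yeats4, a chromatin reader, was at 103 and 89.5 CPM with cocaine and at 22.5 and 52.0 CPM with saline (1.46, edgeR adjusted p = 0.000478). The other named rises were 2310036O22Rik (2.05), Fbxl15 (2.13), Ccdc85b (1.81), the RNA helicase Ddx28 (1.67), Creg1 (1.60) and the mitochondrial ribosomal gene Mrps34 (1.59).

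All 116 called genes (1.32% of those tested) had no overlap of their cocaine and saline libraries, so that separation adds nothing to a call. The 4 genes that fell had both cocaine libraries below both saline libraries. Among them, Btg2 was at 19.5 and 23.8 CPM with cocaine against 42.3 and 39.5 CPM (-0.90, edgeR adjusted p = 0.0256), whereas its means were 28.2 CPM with cocaine against 16.5 CPM at maintenance (0.65) and 21.1 against 12.3 CPM at 48 h (0.66), neither of them called. Its cocaine mean of 21.6 CPM at 15 days lay near that of 48 h, and the 15 day saline libraries were the highest of the saline libraries. The P450 reductase Por was at 48.1 and 51.4 against 77.8 and 83.5 CPM (-0.66, edgeR adjusted p = 0.0492) and Scg2, a granule protein of peptide release, was at 121 and 119 against 178 and 212 CPM (-0.65, edgeR adjusted p = 0.0415). List members that rose were isolated, beside the 1.28% of all tested genes that did. Of 9 excitatory markers Nrgn rose (0.88, 1583 against 886 CPM) while 7 were below 0 (list median -0.08). Of 20 synaptic vesicle genes Rab3a rose (0.64) while 13 were below 0 (median -0.04), and of 4 NMDA receptor genes Grin2a rose (0.83) while 2 were below 0 (median -0.03). Of 30 genes of the cortical transcription factor list Fezf2 rose (0.77, median -0.03). Of 17 chromatin genes that the study names Yeats4 and Ube2d3 (0.62) rose (median 0.08).

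These rises went with a pattern of whole libraries. The median log2 level of the 112 genes, relative to the mean of the P60 libraries, was 1.00 and 0.89 in cocaine libraries 9 and 10, but 0.32 in saline library 12 and -0.33 in saline library 11, and of the 112 genes 110 were higher in saline library 12 than in saline library 11. In the other excitatory clusters of these 4 libraries the same medians were 0.91, 0.77, 0.33 and -0.34. In the 3 P21 libraries they were 1.28, 0.61 and 0.55 in Exc_16, and in the remaining 8 P60 libraries between -0.41 and 0.06. With a library score as covariate, taken from genes that differ between saline libraries 11 and 12 in the other clusters, 0 genes were called by edgeR at 15 days and 273 had an unadjusted p under 0.05. That score rests on the saline libraries of the comparison itself, and 58 of the 116 called genes are among its 200 genes (58 of 200), so this count does not say which part of the 116 goes with cocaine. DESeq2 called 34, and the count was 15 without saline library 11, 16 without cocaine library 9, 48 without cocaine library 10 and 248 without saline library 12. With 2 libraries in each group, cocaine and this library pattern cannot be told apart at 15 days.

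Over the 3 time points together 1 gene was called (0.0114%), with 653 at an unadjusted p under 0.05. Nppc, the precursor of C-type natriuretic peptide (chr1:88562866-88567147, - strand), was at 74.6 and 103 CPM in the cocaine and 120 and 127 CPM in the saline libraries of maintenance. It was at 104 and 84.0 against 224 and 144 CPM at 48 h, and at 62.6 and 75.7 against 96.1 and 132 CPM at 15 days. Cocaine libraries were below saline libraries within each time point, with means of 84.1 ± 16.7 and 141 ± 43.8 CPM (SD, n = 6 each; log2 fold change -0.74, SE 0.13, edgeR adjusted p = 0.0228), and the changes by time were -0.62, -0.93 and -0.68, none of them called alone.

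Nppc was called in 13 of 18 alternatives, with the library score among them (-0.90, edgeR adjusted p = 0.00329), and not by DESeq2 or without library 1, 3, 8 or 9. Its P60 level in Exc_16, 112 CPM, was the highest of the 26 clusters, level with Exc_17 at 111 CPM, and at P21 it was 55.5 ± 14.9 CPM (SD, n = 3). In the other excitatory clusters its means were 34.6 CPM with cocaine and 44.7 CPM with saline, and in the 3 alike clusters 74.2 and 103 CPM. Whether the change in Exc_16 differs from that in other clusters was not tested over all time points.

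Against the other excitatory clusters, 1 of 11975 genes was called for a different cocaine change at 15 days (0.00835%), with 395 at an unadjusted p under 0.05. Gadd45g, a gene induced by stress and activity that is linked to DNA demethylation, was at 68.4 and 98.9 CPM in cocaine libraries 9 and 10 and at 152.5 and 146.6 CPM in saline libraries 11 and 12 of Exc_16, and at 66.4 against 75.3 CPM in the others (difference -0.65, SE 0.12, edgeR adjusted p = 0.00283). The call was lost against the 3 alike clusters (113.9 against 124 CPM), in DESeq2, and without any of the 4 libraries of 15 days. Within Exc_16 the cocaine change of Gadd45g at 15 days was not called (-0.81, edgeR adjusted p = 0.706). It was -0.19 at maintenance and 0.20 at 48 h, neither of them called. Saline means were 83.1 CPM at maintenance, 47.1 CPM at 48 h and 149.6 CPM at 15 days. The cocaine means were 102.8, 62.2 and 83.6 CPM.

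**Figure D5:**
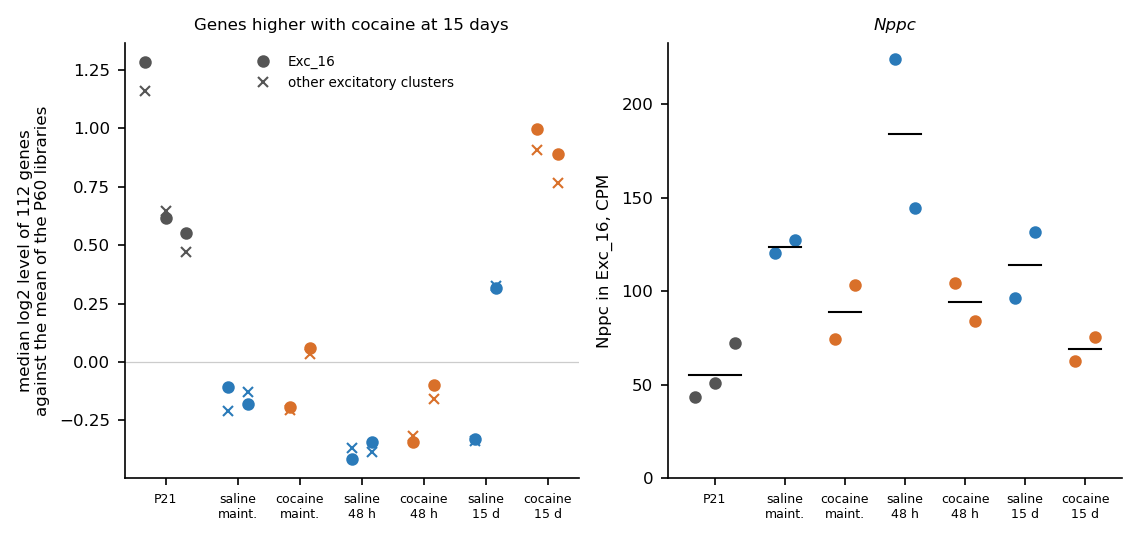
Left, median log2 level of the 112 genes higher with cocaine at 15 days in each library, relative to the mean of the P60 libraries, in Exc_16 (circles) and in the other excitatory clusters (crosses). Right, Nppc in Exc_16 (CPM) by library, with group means as black lines; the 6 cocaine libraries lie between 62.6 and 104 CPM, each below the saline libraries of its time point.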

How the data were processed

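UMI counts per gene and barcode were deposited by the authors as 1 matrix per library, made with Cell Ranger on the mm9 genome per the labels and left unnormalised. Per the methods, the authors removed cells with high mitochondrial content (given by the authors as a fraction of UMIs per cell) or few genes, and cells with unusually many genes as doublets, aligned saline and cocaine cells by canonical correlation, clustered the P60 cells in Seurat 2.1.0 and assigned P21 cells by correlation. No further doublet calling was done, and the authors' annotation of cells was used as deposited.

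Here the counts of retained barcodes were summed per library over Exc_16 and over the other excitatory clusters. Of 26145 genes, 154 genes of cytosolic ribosomal proteins and the 13 of the mitochondrial genome were set aside, which left 25978 genes, and the 149 symbols that occur more than once were kept apart by their identifier. Libraries needed at least 10 cells of a cluster, which all 15 had in Exc_16. After edgeR's expression filter, TMM scaling and quasi-likelihood tests (edgeR 4.0.16, R 4.3.3) were applied, with log2(CPM + 1) for descriptions. All P60 libraries shared 1 estimate of spread in the cocaine fit. DESeq2 1.42.0, other scaling, no filter, cell minimum and number, left-out libraries, a covariate and other denominators were alternatives. Exact permutation tests went through all regroupings in Python 3.11.15 with numpy 2.4.6. The procedures were tested on simulated counts, drawn from gene means and library totals without any pattern of whole libraries. That simulation cannot show how the tests behave under such a pattern. The library score came from 200 genes. Library totals were 8375172 to 42892922 UMIs in retained cells.

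The cells, gene lists and tests were chosen with earlier results of these data known. Genes were named as list members, as the 10 largest against the next cluster and against the mean of the others, as the 6 lowest, and per test as the 10 largest rises and falls at 20 CPM or more with no overlap of the libraries compared. Genes named for pairs of clusters and the 6 called against the alike clusters were chosen after their values were seen. Positions are those of the NCBIM37 (mm9) annotation. The table of all cells joined was not used, and 3 genes that the rule names are not reported here.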

Additional observations from a re-analysis of the deposited data

Results flagged for a closer look

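In the named genes, the highest or lowest library of a group stood apart from the rest (Dixon's criterion at the 95% level) in 5 of 51 groups of Exc_16 levels, where chance gives about 1 in 20. Saline library 12 was the highest for Hba-a1 (23.02 CPM, the next 10.9 CPM), Fbxl15 (19.7 CPM, the next 6.52), 2310036O22Rik (57.2 CPM, the next 26.1) and Yeats4 (52.0 CPM, the next 26.1). Saline library 2, which has 11 Exc_16 cells, was the highest for Tnnt2 (146 CPM, the next 101).

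The age change in Exc_16 differed from that in the other 25 excitatory clusters by the interaction test. The log2 change was higher in Exc_16, beside the differences given above for S100a6 (1.66), Pvrl3 (1.38) and Hist1h2bc (1.31), for the copine Cpne9 (1.02), 6330406I15Rik (0.99), Tspan17 (0.83), the heparan sulfate sulfotransferase Hs3st1 (0.80), Gstm7 (0.78), the carbonic anhydrase Car4 (0.76) and Tcap (0.75). It was lower for Ass1 (-2.25), Slc5a5 (-2.15), Cidea (-2.07), Nrsn2 (-1.73), Marcksl1 (-1.48), Maob (-1.36), Efhd2 (-1.30), the isocitrate dehydrogenase Idh1 (-1.23), the ephrin Efnb3 (-1.17) and the Notch ligand Dner (-0.95). At 15 days the cocaine change of Gadd45g was lower in Exc_16 than in the other clusters (-0.65). Within Exc_16 alone that change was not called (-0.81).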

How the results depend on the processing

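Calls within 1.5 times of those reported came from most alternatives, and the exceptions follow; the cause was not tested where no construction shows it. The age count of 763 of 7074 genes became 268 of 8058 with the saline libraries of 15 days alone (fewer samples). With 11 cells drawn per library (fewer cells) it was 325 of only 3396 genes tested, so these counts have unlike denominators. It was 93 of 7074 with the library score (chosen, like the comparison with the 3 most alike clusters, after seeing the data). Leaving out 1 library gave 581 to 791, and 2 P21 libraries summed gave 689. Cocaine counts without a filter on low counts were 3 at maintenance, 3 at 48 h, 184 at 15 days and 11 over all time points; with at least 20 cells per library they were 13 at maintenance and 9 over all time points, where libraries 2 and 4 drop out and the 1 saline and 1 cocaine library left at maintenance are assumed to vary like the other groups. At 15 days DESeq2 gave 34 and the library score, which shares its saline libraries with that comparison, 0. Leaving out 1 library gave 0 to 6 genes at maintenance, 0 to 1 at 48 h, 15 to 248 at 15 days (16 without cocaine library 9 and 48 without cocaine library 10) and 0 to 40 over all time points, with 40 without saline library 12 and 0 without cocaine library 1, 8 or 9, 4 without cocaine library 4 and 2 or 3 without library 2, 5, 6 or 11. For the age change against other clusters the count of 70 became 133 with no fold limit, 30 in DESeq2, 6 against the 3 most alike clusters and 46 with the library score. For the cocaine change at 15 days against other clusters it became 0 in DESeq2, 0 against the alike clusters and 2 with at least 20 cells, and ran from 0 to 2 with 1 library left out. The age difference in share was -1.43 points over all retained cells and ran from -3.05 to -2.42 points with 1 library left out (-2.57 without saline library 3), and the cocaine difference ran from -0.608 to 0.973 points, below 0 without library 1 (-0.608), 2 (-0.219), 5 (-0.066) or 11 (-0.086). Against the alike clusters the differences of Hist1h2bc (-0.24), Tspan17 (-0.031) and Tcap (-0.24) changed sign. Libraries of different ages or treatments could not be paired, because the labels give them no replicate number shared between groups. The tests against other clusters did compare Exc_16 and the other clusters within each library, with a term for each library. Levels under 20 CPM in libraries with few cells rest on a handful of UMIs, and changes of such genes were not detectable at this depth unless large.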
